A study of Homo sapiens with 30 samples.

Results

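Multi-walled carbon nanotubes (MWCNT) at 100 µg/ml were compared with fresh medium after 1 h in a co-culture of human intestinal epithelial lines, over 3 exposed and 3 control arrays of the 30 in the series, chosen by their sample titles. Caco-2, a colorectal adenocarcinoma line that comes to resemble absorptive enterocytes when confluent, and HT29-MTX, a mucus-secreting line derived from HT29 with methotrexate, were mixed at 75% and 25% and kept on Transwell inserts for 14 days. The nanotube suspension was placed in the apical compartment above fresh basolateral medium, and the controls had fresh medium on both sides, so the comparison carries the particles and whatever their suspension brought with them. Flasks of each line were pooled before plating and the labels call the samples biological replicates without naming separate cultures. The p-values below thus measure the spread between such samples, and those of the gene tests take it from all 30 arrays. Values are log2 levels from Affymetrix arrays, 1 per probe set. Other arrays used below are the 3 of MWCNT at 10 µg/ml and the 3 of titanium dioxide nanobelts (TiO2-NB) at 100 µg/ml, both at 1 h, and the 3 controls and 3 MWCNT arrays at 100 µg/ml of 24 h.

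An epithelium answers a change at its apical face within minutes through kinase cascades that switch on immediate early genes, among them EGR1, the AP-1 factors and MYC, and then their brakes, the DUSP phosphatases and Sprouty proteins. NF-kB works in a similar loop: its subunits are held in the cytoplasm by IκB proteins, and once released they induce chemokines together with their own inhibitors, NFKBIA and TNFAIP3. Short-lived transcripts such as these fall quickly when their transcription slows, so at an early time both rises and falls can be seen. Other programmes are the amino acid and glutathione genes under ATF4, the antioxidant genes under NRF2 and the xenobiotic genes under the aryl hydrocarbon receptor.

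Markers of both lines were looked up in the controls. Of brush border and enterocyte genes 24 of 30 (80%) and of mucus and goblet cell genes 14 of 21 (66.7%) lay above the array median, against 58.8% of all genes, so the second share was near that of all genes. Levels of different probe sets are not on one scale, and these counts are only a description. APOA1, an apolipoprotein of enterocytes, averaged 14.09, VIL1, the microvillus protein villin, 11.89, and TFF1, a trefoil peptide of mucous cells, 12.79, while the secreted gel mucins MUC2 and MUC5AC averaged 6.10 and 6.61, MUC2 below the array median. Of markers of other cells, 1 of 19 for leukocytes, 3 of 12 for fibroblasts and 1 of 9 for endothelium lay above the array median, and PTPRC, the pan-leukocyte antigen, averaged 3.62. RMA gives no level of 0, so no marker reads 0. The mean level of the leukocyte list ran from 5.08 to 5.12 over the controls and from 5.09 to 5.11 over the exposed arrays, that of the fibroblast list from 5.99 to 6.03 and from 5.93 to 6.02, and that of the endothelial list from 4.88 to 4.93 and from 4.86 to 4.89. In a mixed culture, fewer cells of a type and less RNA per cell cannot be told apart.

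Array medians lay between 6.45 and 6.49 over the series, and the lowest correlation between arrays of a group was 0.997 in the exposed and 0.998 in the control group. One sign of RNA makeup did move with the exposure: the probe set for the 5′ end of 18S ribosomal RNA read 8.61, 8.62 and 8.81 in the controls and 9.59, 10.78 and 10.21 in the exposed arrays. The groups did not overlap, and the difference of 1.51 had an exact two-sided permutation p of 0.1, the smallest that 3 arrays against 3 can give. The middle of 18S differed by 0.99 and its 3′ end by 0.29. Of 28S the 5′ end differed by 0.65, the middle by -0.14 and the 3′ end by 0.076. The 5′ ends of GAPDH and ACTB differed by 0.0080 and 0.082 and their 3′ ends by 0.022 and 0.10. For the middle of 28S and the 3′ end of ACTB the groups did not overlap either. The 18S difference from control was 1.17 at 10 µg/ml, 0.80 for TiO2-NB at 100 µg/ml and 0.059 for 100 µg/ml of MWCNT at 24 h. Its part in the results was not tested, and for the gene lists below the number of calls that passed with the 18S level of each array in the fit is given. Since the 18S groups did not overlap, that fit cannot fully separate the 18S level from the exposure, and a lost call names no cause. Some calls were lost with little change in size, as for HIVEP1 (0.55 without and 0.50 with 18S) and GPATCH2 (-0.56 and -0.54). Others moved further, as for LRP1 (0.59 and 0.30). Over all genes that fit called 104 higher and 136 lower.

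Within 1 h of exposure 1729 of 22215 probe sets (7.78%) differed from control at an adjusted p under 0.05 (limma, Benjamini-Hochberg over all probe sets), 780 higher (3.51%) and 949 lower (4.27%). Below, a gene that passed is said to have risen or fallen, and n is 3 arrays per group. Each ± gives the standard error of a log2 change, from the spread within groups over all 30 arrays. It can differ from what the 6 arrays alone would give. Taking for each of 11963 genes the probe set with the highest mean, 453 genes rose (3.79%) and 676 fell (5.65%). Changes were mostly small: the median was 0.26 for the probe sets that rose and -0.24 for those that fell, 14 that rose and 20 that fell reached 1.5-fold, and 2 and 3 of these reached 2-fold. For 1079 of the 1129 genes the exposed arrays lay wholly on 1 side of the controls, against 1163 (9.72%) of all genes with every exposed array above the controls and 1613 (13.5%) with every one below. The call held with each of the 6 arrays left out in turn for 195 genes that rose (1.63%) and 255 that fell (2.13%), together 3.76% of genes, and the word "held" is used for these calls only. In what follows the control arrays are C1 to C3 and the exposed arrays M1 to M3, by replicate number, and where a call did not hold the arrays whose removal ended it are named with the highest adjusted p that resulted. Without M3 the count was 1112 probe sets, with the 18S level in the fit 347, and from the 6 arrays alone, without the spread shared by the other groups, 112. Calls that held still rest on that shared spread. Over genes the 6 arrays alone called 32 higher and 37 lower.

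**Figure D1:**
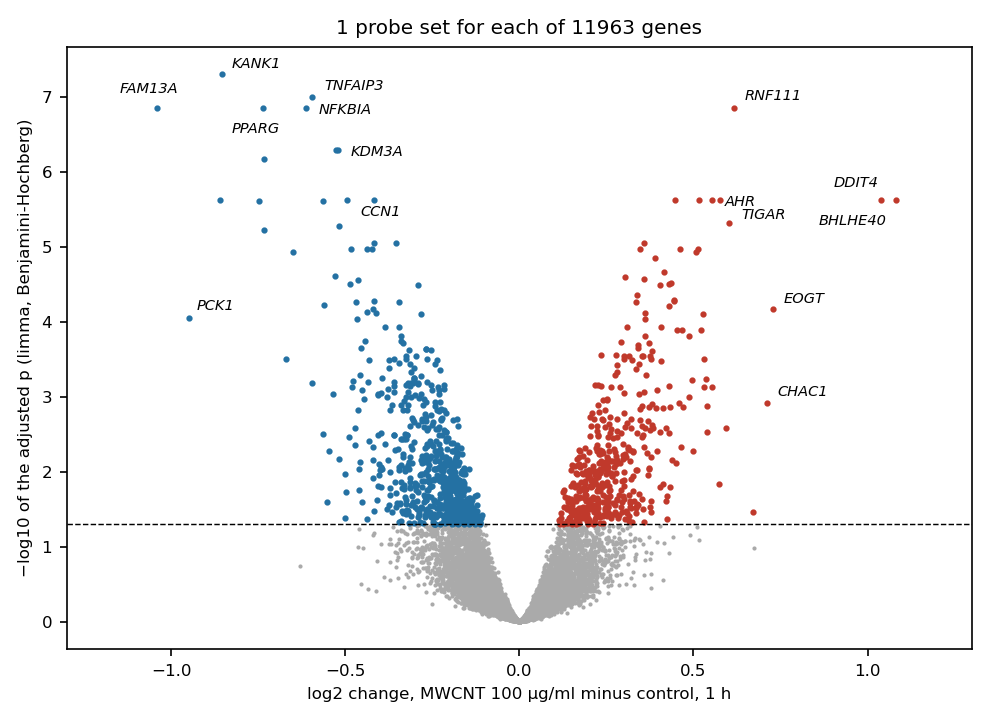
Log2 change of each of 11963 genes between MWCNT at 100 µg/ml and control at 1 h (horizontal axis) against minus log10 of the adjusted p from limma (vertical axis). Red points are the 453 genes that rose, blue points the 676 that fell, grey points the rest, and the dashed line is an adjusted p of 0.05; DDIT4 and BHLHE40 lie farthest to the right and FAM13A farthest to the left.

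The largest rises were in DDIT4 and BHLHE40. DDIT4 (also REDD1), a stress-induced inhibitor of mTORC1, read 9.35, 9.61 and 9.37 in the controls and 10.89, 10.19 and 10.50 in the exposed arrays. Every exposed array lay above every control, and the first was the highest. The rise was 1.08 ± 0.11, or 2.12-fold (adjusted p = 2.33e-06). BHLHE40, a transcriptional repressor of the circadian clock that also answers to hypoxia and many other stimuli, read 9.00, 9.14 and 8.88 against 10.04, 10.09 and 9.99, with the exposed arrays close together and clear of the controls, and rose by 1.04 ± 0.11, or 2.05-fold (adjusted p = 2.33e-06). Its second probe set rose by 0.59. The paralogue BHLHE41 read 6.83, 6.84 and 6.80 against 7.33, 7.39 and 7.36 and rose by 0.54 ± 0.091 (adjusted p = 0.000570).

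Several other risers are regulators of signalling or transcription. RNF111 (Arkadia), a ubiquitin ligase that amplifies TGF-beta signals by removing their inhibitors, read 8.10, 8.05 and 8.23 in the controls and 8.86, 8.68 and 8.69 after exposure, a rise of 0.62 ± 0.054 (adjusted p = 1.39e-07). AHR, the ligand-activated xenobiotic receptor, read 8.43, 8.30 and 8.54 against 8.90, 8.96 and 9.07 and rose by 0.55 ± 0.059 (adjusted p = 2.33e-06). Neither gene had an exposed array below any control. GATAD2A, a subunit of the NuRD chromatin remodelling complex, rose by 0.58 ± 0.062, and HIVEP1, a zinc finger protein that binds kB-like enhancer elements, by 0.55 ± 0.097. TIGAR, a p53-regulated enzyme that lowers fructose-2,6-bisphosphate, read 8.41, 8.47 and 8.57 against 9.16, 8.98 and 9.12 and rose by 0.60 ± 0.068 (adjusted p = 4.74e-06).

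EOGT, which adds O-linked N-acetylglucosamine to EGF repeats in the endoplasmic reticulum, read 5.17, 5.12 and 5.15 in the controls and 5.91, 5.81 and 5.91 in the exposed arrays, a rise of 0.73 ± 0.10 (adjusted p = 6.73e-05). LRP1, a large endocytic receptor, and LRP6, a Wnt co-receptor, rose by 0.59 ± 0.12 and 0.54 ± 0.11, each on both of its probe sets. MSN (moesin), which ties actin filaments to the plasma membrane, rose by 0.54 ± 0.10, and MCM9, a helicase of DNA repair, by 0.53 ± 0.085 on 1 of its 2 probe sets. CHAC1, which breaks down glutathione and is a target of ATF4, read 6.39, 6.39 and 6.19 against 7.32, 6.52 and 7.25. Its second exposed array lay just above the controls and the others far above, and the rise was 0.71 ± 0.13 (adjusted p = 0.00119).

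A pair of the 16 named risers did not hold. TAF15, an RNA-binding protein of the FET family, rose by 0.67 ± 0.20 (adjusted p = 0.0344), but its adjusted p was 0.148 without C1, 0.0589 without C3, 0.124 without M2 and 0.122 without M3, and its change was -0.089 with the 18S level in the fit. PHF14, a PHD finger protein of low level here, rose by 0.57 ± 0.15, with an adjusted p of 0.0723 without C2, 0.0717 without M1 and 0.0545 without M3. With the 18S level in the fit 10 of the 16 risers passed; HIVEP1, LRP1, LRP6, MSN and MCM9 kept their sign with changes of 0.50, 0.30, 0.26, 0.46 and 0.42 and did not pass. From the 6 arrays alone 11 of 16 passed. CHAC1 (adjusted p = 0.147), TAF15 (0.101), PHF14 (0.0969), LRP1 (0.0673) and LRP6 (0.0610) did not.

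FAM13A showed the largest fall. Its arrays read 11.028, 11.322 and 11.003 in the controls and 10.224, 9.875 and 10.133 after exposure. The groups were far apart, and the fall was 1.04 ± 0.089, or 2.06-fold (adjusted p = 1.39e-07). Its other 2 probe sets fell by 1.10 and 1.21, so all 3 fell. KANK1, an adaptor that couples focal adhesions to the cell cortex, read 8.85, 8.95 and 8.91 against 7.93, 8.16 and 8.05, with tight groups well apart, and fell by 0.85 ± 0.065 (adjusted p = 4.93e-08).

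PCK1, which makes phosphoenolpyruvate for gluconeogenesis, read 10.04, 10.45 and 10.18 in the controls and 9.43, 8.90 and 9.50 after exposure. Its second exposed array was the lowest, none overlapped the controls, and the fall was 0.95 ± 0.13 (adjusted p = 8.84e-05). PPARG, the lipid-sensing nuclear receptor of colonocytes and fat cells, read 9.57, 9.65 and 9.43 against 8.82, 8.73 and 8.90 and fell by 0.74 ± 0.064 (adjusted p = 1.39e-07). MXI1, which pairs with MAX and opposes MYC, read 11.04, 11.40 and 11.07 against 10.51, 10.31 and 10.48 and fell by 0.73 ± 0.084 (adjusted p = 5.91e-06). For both genes the groups were separate. SIRT4, a mitochondrial sirtuin, fell by 0.60 ± 0.10 on both of its probe sets. RARB, a retinoic acid receptor, fell by 0.86 ± 0.092 on the probe set with the highest level, while its other 4 probe sets changed by -0.25 to 0.11 and did not pass.

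The remaining fallers include the classical feedback inhibitors of NF-kB. NFKBIA (IκBα), which holds NF-kB in the cytoplasm, read 9.93, 10.11 and 10.01 in the controls and 9.50, 9.30 and 9.42 in the exposed arrays, a fall of 0.61 ± 0.054 (adjusted p = 1.39e-07). TNFAIP3 (A20), an ubiquitin-editing enzyme that shuts the pathway off, read 8.34, 8.47 and 8.47 against 7.78, 7.86 and 7.87 and fell by 0.59 ± 0.048 (adjusted p = 9.79e-08), with its second probe set down by 0.50. Both were lower on all 3 exposed arrays. KHDC4, an RNA-binding protein linked to splicing, fell by 0.75 ± 0.081, GRAMD2B, a GRAM domain protein, by 0.73 ± 0.071, SLA, an adaptor that dampens receptor signalling, by 0.65 ± 0.079 on 1 of 2 probe sets, and MID1, a microtubule-bound ubiquitin ligase, by 0.56 ± 0.061 on 2 of 3. NPPB, the B-type natriuretic peptide, fell by 0.67 ± 0.11, RAD54B, a motor of homologous recombination, by 0.56 ± 0.077, and GPATCH2, a G-patch protein, by 0.56 ± 0.12. All 16 falls held. With the 18S level in the fit 15 passed and GPATCH2 did not (-0.54, adjusted p = 0.106); from the 6 arrays alone 14 passed, and PCK1 (adjusted p = 0.0571) and GPATCH2 (adjusted p = 0.0831) did not.

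**Figure D2:**
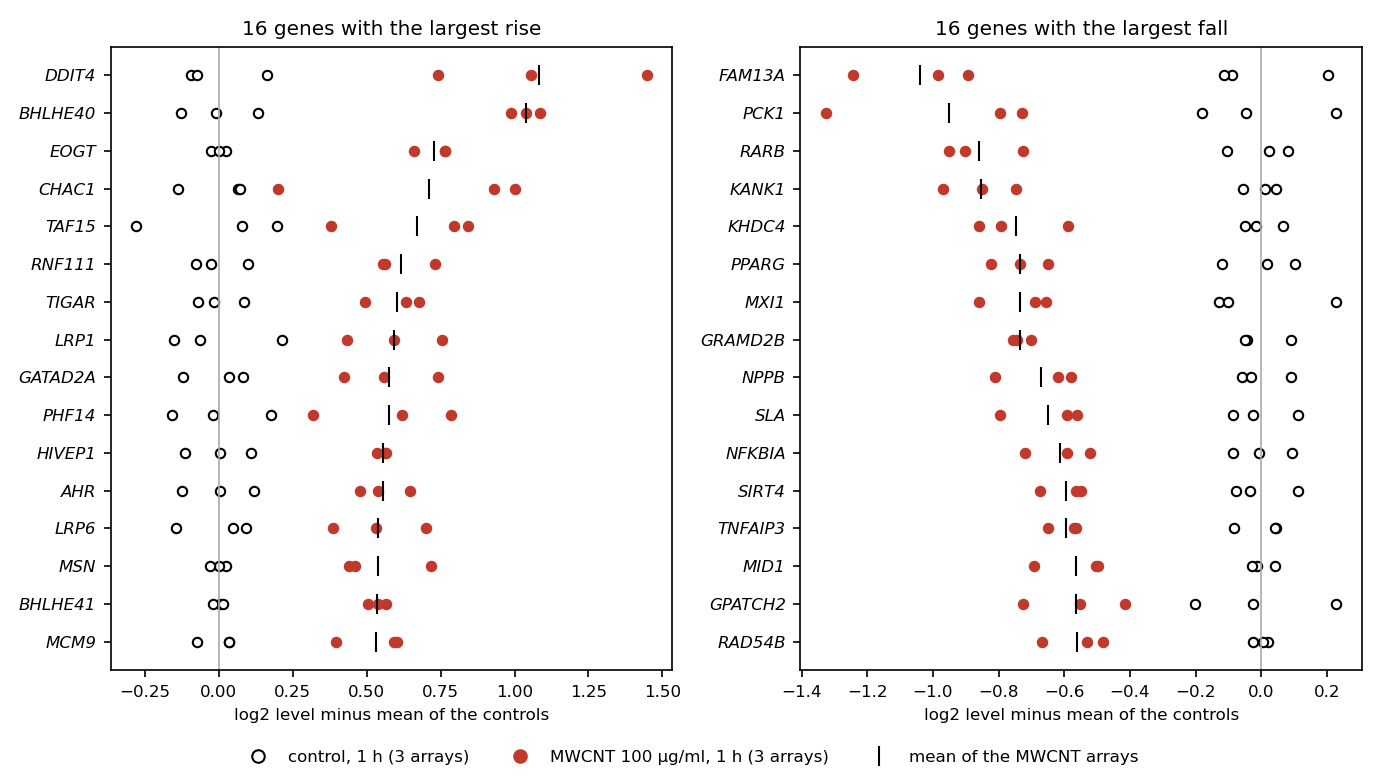
Level of the 16 genes with the largest rise (left) and the 16 with the largest fall (right) on each of the 6 arrays, as log2 level minus the mean of the 3 controls of that gene. Open circles are control arrays, red circles MWCNT arrays and ticks the MWCNT means; no red circle overlaps the open circles of its gene, CHAC1, TAF15 and PHF14 come closest among the risers, and GPATCH2 is the closest among the fallers.

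Promoter sequences were set beside these genes to show what lies directly upstream of their annotated starts. RefSeq promoters (GRCh38.p14) matched 9563 of the 11963 genes, and 250 bases before each start were searched on both strands for 8 short motifs. The windows of the genes with the largest rises, the largest fall and the NF-kB inhibitors that held a searched motif are printed 5′ to 3′ on the strand of the gene, and capitals mark the matches. In DDIT4 (chr10:72273674-72273923, plus strand) they mark GCGTG, the core of the dioxin response element, found 2 times. In BHLHE40 (chr3:4979187-4979436, plus strand) and FAM13A (chr4:89057186-89057435, minus strand) they mark the E-box CACGTG, which clock factors, MYC and MXI1 partners can read. In TNFAIP3 (chr6:137867009-137867258, plus strand) they mark an E-box and 2 kB sites, and in NFKBIA (chr14:35404750-35404999, minus strand) 1 kB site. The TNFAIP3 window precedes a start that lies 910 bases inside the annotated span of the gene, as do the windows of 16.2% of the 9563 genes at various distances, while the other 4 printed windows end where the gene begins.
DDIT4: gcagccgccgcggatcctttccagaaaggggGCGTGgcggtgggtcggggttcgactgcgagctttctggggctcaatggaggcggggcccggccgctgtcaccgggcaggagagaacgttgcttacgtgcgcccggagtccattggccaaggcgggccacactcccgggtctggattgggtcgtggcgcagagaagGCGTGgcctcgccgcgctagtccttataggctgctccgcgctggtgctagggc
BHLHE40: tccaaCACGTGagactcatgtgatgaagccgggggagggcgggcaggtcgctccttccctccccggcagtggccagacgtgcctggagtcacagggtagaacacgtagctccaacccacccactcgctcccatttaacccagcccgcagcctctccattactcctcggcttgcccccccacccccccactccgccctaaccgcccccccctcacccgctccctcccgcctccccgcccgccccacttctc
FAM13A: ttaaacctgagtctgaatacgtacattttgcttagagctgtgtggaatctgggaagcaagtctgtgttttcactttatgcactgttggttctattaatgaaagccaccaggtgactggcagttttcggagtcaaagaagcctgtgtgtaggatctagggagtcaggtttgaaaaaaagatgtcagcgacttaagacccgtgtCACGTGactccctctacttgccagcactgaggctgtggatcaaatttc
TNFAIP3: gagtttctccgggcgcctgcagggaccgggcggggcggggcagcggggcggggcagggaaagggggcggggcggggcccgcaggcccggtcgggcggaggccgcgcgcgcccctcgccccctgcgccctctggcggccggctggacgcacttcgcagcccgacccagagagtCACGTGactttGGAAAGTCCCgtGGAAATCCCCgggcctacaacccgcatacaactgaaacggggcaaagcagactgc
NFKBIA: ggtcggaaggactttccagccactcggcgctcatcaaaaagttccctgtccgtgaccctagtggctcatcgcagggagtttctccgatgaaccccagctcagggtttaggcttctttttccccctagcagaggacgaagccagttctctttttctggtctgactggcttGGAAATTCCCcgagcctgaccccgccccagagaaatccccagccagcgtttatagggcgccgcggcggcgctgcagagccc

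These matches are descriptions of sequence. The E-box was in 8.34% of all 9563 promoters, 11.8% of the 374 of genes that rose and 10.2% of the 566 of genes that fell. A kB site was in 11.6%, 14.2% and 11.3% respectively, and GCGTG in 41.7%, 47.6% and 41.7%. The cyclic AMP element TGACGTCA was in 2.79%, 3.74% and 3.36%, and its core TGACG, which the longer element contains, in 27.2%, 36.4% and 32.9%. The FOXO element GTAAACA was in 2.16%, 1.34% and 3.00%, the amino acid response element TGATGNAA in 1.98%, 1.6% and 1.94%, and the CArG box of serum response factor in 1.21%, 0.802% and 0.707%. Windows of genes that changed were thus close to those of all genes for most motifs, with the widest gap for TGACG in the genes that rose.

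The lists below were chosen with earlier results of these data known, so their shares beside those of all genes are only a description. Nor are these shares matched for level. In the controls 58.8% of all genes lay above the array median, against 76% of the immediate early list. The share was 97% for ribosome biogenesis and 28.6% for chemokines and cytokines. With low probe sets left out 2166 of 14810 were called, against 1729 of 22215. In the immediate early list, of 25 measured members 5 fell and 2 rose (20% and 8%, against 5.65% and 3.79% of all genes), and the median change was -0.065 against -0.014 over all genes. Of these calls, 1 of 2 rises and 1 of 5 falls passed with 18S in the fit. EGR1, a zinc finger factor that growth factors induce within minutes, read 10.19, 10.52 and 10.08 in the controls and 10.04, 9.39 and 9.80 after exposure. Its second exposed array was by far the lowest and the first nearly reached the controls; the fall was 0.52 ± 0.12 (adjusted p = 0.00672; on 1 of 2 probe sets, lost without C2 or M2, adjusted p up to 0.0551). JUN, the core AP-1 factor, read 10.10, 10.57 and 10.25 against 9.90, 9.77 and 9.95 and fell by 0.43 ± 0.090 (adjusted p = 0.00388) on 2 of its 4 probe sets. CCN1, a secreted matricellular protein, read 8.02, 7.96 and 8.12 against 7.61, 7.49 and 7.51 and fell by 0.49 ± 0.052 (adjusted p = 2.33e-06). Every exposed array lay below the controls for both, and both calls held. CCN2 and MCL1, an anti-apoptotic protein of short half-life, fell by 0.31 (lost without C1, C3, M1 or M2, adjusted p up to 0.0766) and 0.12 (on 1 of 5 probe sets, lost without C2, C3, M2 or M3, adjusted p up to 0.162). MYC went the other way, from 10.00, 9.89 and 9.91 to 10.39, 10.49 and 10.26, clear of the controls on every array, a rise of 0.44 ± 0.060 (adjusted p = 5.04e-05) that held. ZFP36, which speeds the decay of AU-rich messages, rose by 0.25 (lost without C3, adjusted p 0.0534).

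Of 15 measured brakes on ERK and MAP kinase signalling 5 rose and 2 fell (33.3% and 13.3%), with a median change of 0.11. DUSP6, the cytoplasmic ERK phosphatase whose transcript follows ERK activity, read 10.88, 10.86 and 10.88 in the controls and 11.49, 11.34 and 11.39 after exposure. The controls were nearly identical, all exposed arrays lay above them, and the rise was 0.53 ± 0.093 (adjusted p = 0.000742), with all 3 probe sets up. SPRY1, a Sprouty inhibitor of receptor tyrosine kinase signalling, read 8.46, 8.55 and 8.49 against 8.78, 8.88 and 8.75 and rose by 0.30 ± 0.061, and SPRED2, a related inhibitor of RAF, by 0.31 ± 0.068 on 1 of 3 probe sets, the other 2 changing by -0.21 and -0.024. These 3 calls held. SPRY4 and PHLDA1 rose by 0.33 (lost without C1, C3 or M1, adjusted p up to 0.0601) and 0.31 (on 3 of 5 probe sets, lost without C1, C2, C3, M2 or M3, adjusted p up to 0.165). The stress kinase phosphatases fell instead: DUSP10 by 0.50 (on 1 of 2 probe sets, lost without C2, C3 or M3, adjusted p up to 0.108) and DUSP1 by 0.37 (on 1 of 2 probe sets, lost without C2 or M2, adjusted p up to 0.147). With the 18S level in the fit DUSP6 alone of the list passed (0.54, adjusted p = 0.0401). Of 10 EGF family ligands and receptors TGFA rose, by 0.34 ± 0.091 (on 1 of 3 probe sets, lost without C3, M1 or M2, adjusted p up to 0.109). Among 14 Krüppel-like factors KLF5, a transcription factor of the crypt epithelium, rose by 0.41 ± 0.077 on both probe sets and KLF11, a TGF-beta-inducible repressor, fell by 0.29 ± 0.058, and both calls held. Of the Krüppel-like factors 7.14% rose and 7.14% fell and of the EGF family list 10% rose and 0% fell, against 3.79% and 5.65% of all genes. Fitting 18S left 1 of 1 rise and 0 of 1 fall of the Krüppel-like factors called, and 0 of 1 rise in the EGF family list.

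Of 8 measured NF-kB inhibitors 2 fell, NFKBIA and TNFAIP3 (25%), and with the 18S level in the fit both passed. The other 6 did not pass; NFKBIE changed by -0.13 and TNIP1 by -0.11. RELB, a subunit of the non-canonical arm, read 6.56, 6.56 and 6.43 in the controls and 6.93, 6.77 and 6.94 after exposure and rose by 0.37 ± 0.080 (adjusted p = 0.00551), a call that held and passed with 18S in the fit, while RELA changed by 0.087, NFKB1 by 0.12 and REL by -0.13 without passing. Of 21 chemokines and cytokines 3 fell (14.3%, against 5.65% of all genes), and 17 changes were below 0 (81%, against 55% of all genes at or below 0), with a median of -0.13. Most of the list read low: 6 members lay above the array median in the controls (28.6%, against 58.8% of all genes). Its mean level there was 5.44 to 5.48. None of these 3 calls held. With 18S in the fit 0 of 3 falls passed. CXCL8 (interleukin-8), which attracts neutrophils, read 6.71, 7.34 and 7.04 against 6.36, 6.56 and 6.51. The controls were widely spread but none overlapped the exposed arrays, and the fall was 0.55 ± 0.15 (adjusted p = 0.0252) on 1 of 2 probe sets. CCL20, which attracts CCR6-bearing lymphocytes, fell by 0.34 ± 0.085 and CXCL3 by 0.34 ± 0.095. The adjusted p was up to 0.15 without C2, C3, M1 or M3 for CXCL8, up to 0.0988 without C2, M2 or M3 for CCL20 and up to 0.133 without C1, C3, M1 or M3 for CXCL3, so that each call was lost without M3, and on CXCL3 the groups overlapped. CXCL5, at a low level, changed by -0.29 and did not pass. Among 13 receptors and survival genes CFLAR, a brake on death receptors, fell by 0.17 ± 0.038 on 1 of its 11 probe sets and IRF1 fell by 0.26 ± 0.061. Both held. BIRC2 fell by 0.13 (lost without C3, M1 or M2, adjusted p up to 0.0839) and TNFRSF1A and BCL2L1 rose by 0.19 (lost without C3, M1 or M3, adjusted p up to 0.111) and 0.18 (lost without C2, C3, M2 or M3, adjusted p up to 0.145). Rises and falls made up 15.4% and 23.1% of this list, against 3.79% and 5.65% of all genes. Of these calls, 0 of 2 rises and 1 of 3 falls passed with 18S in the fit.

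Of 17 measured clock genes 4 rose and 1 fell (23.5% and 5.88%, against 3.79% and 5.65% of all genes), and 12 did not pass. The share that fell was thus near that of all genes. Their median was 0.12, against -0.014 over all genes. Beside BHLHE40 and BHLHE41, PER2, a core period protein, read 8.16, 8.18 and 8.28 in the controls and 8.62, 8.50 and 8.63 after exposure and rose by 0.38 ± 0.060 (adjusted p = 0.000313) on 1 of 2 probe sets, the other changing by 0.026, and NFIL3, a repressor of D-box genes, read 8.71, 8.89 and 8.89 against 9.16, 9.21 and 9.04 and rose by 0.31 ± 0.061 (adjusted p = 0.00219). The exposed arrays lay above the controls for both, and all 4 rises held; with the 18S level in the fit BHLHE40 and BHLHE41 passed. DBP, a D-box activator, fell by 0.29 ± 0.076 (on 1 of 2 probe sets, lost without C2 or M2, adjusted p up to 0.123).

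Of 37 measured genes of the hypoxia response and glycolysis 6 fell and 2 rose (16.2% and 5.41%), with a median of -0.042. Of these calls, 1 of 2 rises and 2 of 6 falls passed with 18S in the fit. KDM3A, a histone H3 lysine 9 demethylase, read 9.77, 9.97 and 9.87 in the controls and 9.38, 9.32 and 9.34 after exposure, with no overlap, and fell by 0.52 ± 0.050 (adjusted p = 4.98e-07). EGLN1, the main oxygen-sensing prolyl hydroxylase, read 8.42, 8.53 and 8.37 against 8.12, 8.05 and 8.10 and fell by 0.35 ± 0.075, and the inducible EGLN3 fell by 0.50 ± 0.12 (lost without C2, adjusted p 0.0850). MXI1 and DDIT4, given above, are also on this list and changed in opposite directions. The glucose transporter SLC2A3 fell by 0.33 (on 1 of 3 probe sets, lost without C2 or M2, adjusted p up to 0.0646) and PFKFB3, which drives glycolysis, by 0.21 (lost without C2, C3, M2 or M3, adjusted p up to 0.108). The pyruvate kinase PKM rose by 0.28 (on 1 of 2 probe sets, lost without C3, M1, M2 or M3, adjusted p up to 0.209). KDM3A, EGLN1, MXI1 and DDIT4 held. KDM4C, another histone demethylase, fell by 0.26 ± 0.053 on 1 of 2 probe sets, and with KDM3A it made up the falls that held among 29 histone demethylases and methyltransferases; KDM6B and KMT2D rose by 0.18 (lost without C1, C3, M1 or M3, adjusted p up to 0.166) and 0.32 (on 1 of 3 probe sets, lost without C1, C2, C3 or M1, adjusted p up to 0.269). Rises and falls made up 6.9% each of that list, against 3.79% and 5.65% of all genes. Of its calls, 1 of 2 rises and 2 of 2 falls passed with 18S in the fit.

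**Figure D3:**
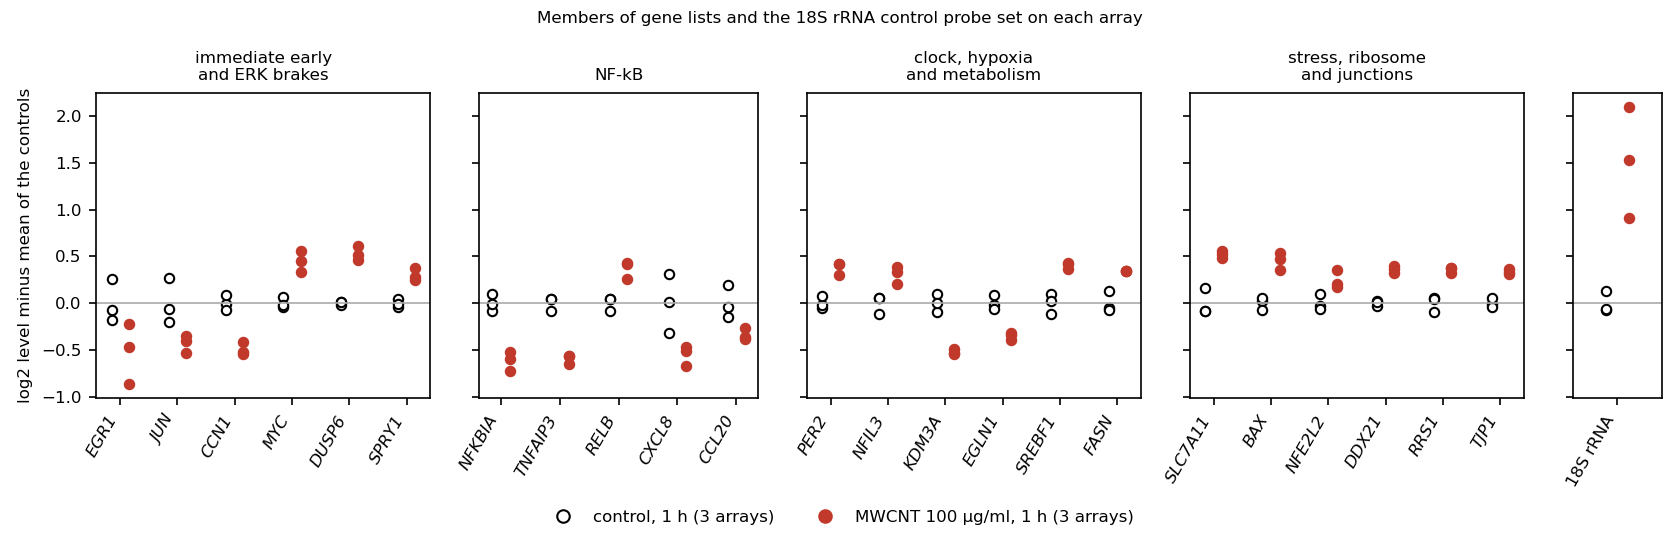
Log2 level minus the mean of the 3 controls (vertical axis) for members of gene lists and for the 5′ probe set of 18S rRNA, on each control array (open circles) and each MWCNT array (red circles) at 1 h. CCN1, NFKBIA, TNFAIP3 and KDM3A fell to 0.49 to 0.61 below the control mean with tight groups, the CXCL8 controls are the most spread, and the 18S values range more widely over the exposed arrays than any gene shown.

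Growth and nutrient signalling showed few other changes. In the mTORC1 and AMPK list DDIT4 and PRKAG2, a regulatory subunit of AMPK, rose (0.35 ± 0.065 on 1 of 2 probe sets for the latter) and DEPTOR, an mTOR inhibitor, fell by 0.22 ± 0.043, of 21 measured, and all 3 held. Among 16 FOXO factors and targets PCK1 fell, CITED2, a CBP-binding co-regulator, rose by 0.39 ± 0.086 on both probe sets, and G6PC1, the glucose-6-phosphatase that completes gluconeogenesis, rose by 0.42 ± 0.11 from a level near 4.99 (lost without C1 or M1, adjusted p up to 0.0979). PIK3CB was the only called gene of 14 in insulin signalling, at -0.14 (on 1 of 2 probe sets, lost without C2, C3, M2 or M3, adjusted p up to 0.227). Rises and falls made up 9.52% and 4.76% of the mTORC1 and AMPK list, 12.5% and 6.25% of the FOXO list and 0% and 7.14% of insulin signalling. Over all genes they were 3.79% and 5.65%. Calls that passed with 18S in the fit were 1 of 2 rises and 1 of 1 fall in the mTORC1 and AMPK list, 0 of 2 rises and 1 of 1 fall in the FOXO list and 0 of 1 fall in insulin signalling.

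Of 28 measured nuclear receptors 4 fell and 2 rose (14.3% and 7.14%, against 5.65% and 3.79% of all genes). Falls made up 66.7% of these calls and 59.9% of the calls over all genes. Beside PPARG and RARB, RXRA, the shared partner of both, fell by 0.18 ± 0.044 on 1 of 2 probe sets and NR0B2, a repressor in bile acid control, by 0.28 ± 0.071. The vitamin D receptor VDR rose by 0.20 ± 0.055 and PPARA by 0.28 ± 0.081. PPARG and RARB held. The adjusted p was up to 0.0721 without C2, M2 or M3 for RXRA, up to 0.0897 without C1, M2 or M3 for NR0B2, up to 0.147 without C1, C2, C3, M1 or M3 for VDR, which was called on 1 of 4 probe sets, and up to 0.140 without C1, C3, M2 or M3 for PPARA, on 1 of 2. Of these calls, 0 of 2 rises and 2 of 4 falls passed with 18S in the fit. Among 12 coregulators CREBBP, a histone acetyltransferase, and NRIP1, a corepressor, rose by 0.40 ± 0.10 (on 1 of 2 probe sets, lost without C2, M1 or M3, adjusted p up to 0.0661) and 0.26 ± 0.068 (lost without C1, C2, M1 or M3, adjusted p up to 0.0892). These 2 rises were 16.7% of the coregulators, against 3.79% of all genes, and both lost their calls with 18S in the fit.

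Of 25 measured genes of sterol and fatty acid synthesis 2 rose and 2 fell (8% each). SREBF1, the transcription factor of fatty acid synthesis, read 7.92, 7.85 and 7.72 in the controls and 8.19, 8.24 and 8.26 after exposure, above the controls throughout, and rose by 0.40 ± 0.053 (adjusted p = 3.20e-05). FASN, the fatty acid synthase, read 7.83, 8.01 and 7.80 against 8.23, 8.23 and 8.22 and rose by 0.34 ± 0.062 (adjusted p = 0.000922) on 1 of 2 probe sets, the other changing by -0.013. PMVK of the mevalonate pathway fell by 0.23 ± 0.047 and INSIG2, which retains SREBP in the endoplasmic reticulum, by 0.39 ± 0.093 (lost without C2 or M2, adjusted p up to 0.0741). The other 3 held. Of these calls, 1 of 2 rises and 0 of 2 falls passed with 18S in the fit. Of 23 genes of fatty acid oxidation and PPAR targets LIPG, an endothelial-type lipase, rose by 0.38 ± 0.076 and held, and SLC25A20, the carnitine carrier, fell by 0.11 (lost without C1, C3, M2 or M3, adjusted p up to 0.161). Each was 4.35% of that list, against 3.79% up and 5.65% down of all genes, and neither passed with 18S in the fit.

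In the ATF4 and integrated stress response list 7 of 35 measured genes rose and 0 fell (20% and 0%, against 3.79% and 5.65% of all genes). The median was 0.046, against -0.014 over all genes. At an unadjusted p under 0.05 (limma) 12 were higher and 5 lower, and with each array left out up to 2 were called lower. SLC7A11, the cystine importer that feeds glutathione synthesis, read 7.40, 7.65 and 7.40 in the controls and 8.04, 7.96 and 8.02 after exposure, clear of the controls, and rose by 0.52 ± 0.077 (adjusted p = 0.000129) on 2 of 3 probe sets. SLC7A1, a cationic amino acid importer, read 9.31, 9.31 and 9.25 against 9.73, 9.47 and 9.51 and rose by 0.28 ± 0.054 on 2 of 5 probe sets. These 2 and CHAC1 held, though CHAC1 did not pass from the 6 arrays alone (adjusted p = 0.147). DDIT3 (CHOP), the death-linked factor downstream of ATF4, read 9.34, 9.59 and 9.43 against 9.97, 9.49 and 9.91, with its second exposed array inside the control range, and rose by 0.33 ± 0.095; its call was lost without C1, C3, M1 or M3, adjusted p up to 0.141. The folate enzyme MTHFD2, the amino acid exchanger SLC7A5 and the glycyl-tRNA synthetase GARS1 rose by 0.17 (lost without C2, C3, M1 or M3, adjusted p up to 0.134), 0.19 (lost without C1, C3, M1 or M3, adjusted p up to 0.231) and 0.14 (lost without any of the 6 arrays, adjusted p up to 0.125). With the 18S level in the fit CHAC1, SLC7A1, MTHFD2 and SLC7A5 passed and SLC7A11 did not (0.37, adjusted p = 0.0624).

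Of 31 NRF2 and antioxidant genes NFE2L2 itself, which codes for NRF2, rose by 0.25 ± 0.046, SQSTM1, the autophagy adaptor p62, by 0.24 ± 0.037 on 1 of 2 probe sets and SLC7A11 as above, all of which held. ABCC3, an export pump, fell by 0.20 (on 1 of 2 probe sets, lost without C3 or M2, adjusted p up to 0.0861). Among 19 chaperones of the endoplasmic reticulum PDIA3 rose by 0.15 ± 0.035 and held, and SEL1L and HSPA5 (BiP) rose by 0.17 (on 2 of 4 probe sets, lost without C1, M1 or M3, adjusted p up to 0.0916) and 0.12 (lost without C1, C2, M1 or M3, adjusted p up to 0.139). Among 19 cytosolic heat shock genes HSPA1L fell by 0.38 ± 0.069 and held. CHORDC1 and DNAJB6 fell by 0.29 (lost without C1, C3 or M1, adjusted p up to 0.0991) and 0.22 (lost without C2, C3, M2 or M3, adjusted p up to 0.0821). HSPA4 and HSPA13 rose by 0.14 (on 2 of 4 probe sets, lost without C1, C2 or M2, adjusted p up to 0.119) and 0.22 (on 1 of 2 probe sets, lost without C1, C3, M1 or M3, adjusted p up to 0.240). In the list of 8 aryl hydrocarbon receptor genes AHR rose as above, CYP1A2 rose by 0.22 (on 1 of 2 probe sets, lost without C1, C2, M1 or M3, adjusted p up to 0.178). TIPARP, a target and repressor of the receptor, fell by 0.17 (lost without C1, C2, M2 or M3, adjusted p up to 0.166). CYP1A1, the classical target, changed by -0.095 (adjusted p = 0.661). Rises and falls made up 9.68% and 3.23% of the NRF2 list and 15.8% and 0% of the endoplasmic reticulum list. They were 10.5% and 15.8% of the heat shock list and 25% and 12.5% of the receptor list, against 3.79% and 5.65% of all genes. With 18S fitted the calls that passed were 1 of 3 rises and 0 of 1 fall in the NRF2 list, 0 of 3 rises in the endoplasmic reticulum list, 0 of 2 rises and 0 of 3 falls in the heat shock list and 1 of 2 rises and 0 of 1 fall in the receptor list. Of 14 metallothioneins and zinc transporters 0 passed (limma) and 1 had an unadjusted p under 0.05, the exporter SLC30A1 at 0.15 (adjusted p = 0.0538).

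Of 19 p53 targets BAX and TIGAR rose (10.5%, against 3.79% of all genes). BAX, which opens the outer mitochondrial membrane, read 8.27, 8.17 and 8.30 in the controls and 8.79, 8.71 and 8.60 after exposure and rose by 0.45 ± 0.066 (adjusted p = 0.000126) on both probe sets, with no overlap, and both rises held. In the BCL2 family 3 of 15 rose and 2 fell (20% and 13.3%, against 3.79% and 5.65% of all genes). The survival protein BCL2L1 rose on all 3 of its probe sets, by 0.18 to 0.56, MCL1 and BAD fell, BAD by 0.16 (on 1 of 2 probe sets, lost without any of the 6 arrays, adjusted p up to 0.119), and BIK rose by 0.15 (lost without any of the 6 arrays, adjusted p up to 0.173). Both p53 targets and 1 of 3 rises and 0 of 2 falls in the BCL2 family passed with 18S in the fit, and 1 further p53 target passed as lower.

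Of 33 ribosome biogenesis genes 8 rose and 3 fell (24.2% and 9.09%, against 3.79% and 5.65% of all genes). Their median was 0.050, against -0.014 over all genes, and 97% lay above the array median in the controls, against 58.8% of all genes. DDX21, a helicase of rRNA processing, read 11.16, 11.11 and 11.15 in the controls and 11.54, 11.51 and 11.46 after exposure and rose by 0.36 ± 0.051 (adjusted p = 9.01e-05). RRS1, a ribosome assembly factor, read 9.51, 9.36 and 9.51 against 9.84, 9.84 and 9.78 and rose by 0.36 ± 0.046 (adjusted p = 2.69e-05). WDR43, a small subunit processome protein, read 8.41, 8.37 and 8.55 against 8.81, 8.77 and 8.80 and rose by 0.35 ± 0.042 (adjusted p = 1.06e-05). In all 3 genes the lowest exposed array was above the highest control. NOP2, an rRNA methyltransferase, and NIP7 rose by 0.30 ± 0.057 and 0.35 ± 0.073, and DDX10 and WDR12 fell by 0.23 ± 0.046 and 0.18 ± 0.041. Those 7 calls held. UTP20, RRP12 and POLR1B rose by 0.27 (lost without M2, adjusted p 0.0639), 0.25 (on 1 of 3 probe sets, lost without C2, C3 or M2, adjusted p up to 0.0714) and 0.33 (lost without C1, C2, M1 or M3, adjusted p up to 0.127). UTP3 fell by 0.14 (lost without C1 or M2, adjusted p up to 0.137). With the 18S level in the fit 4 of the rises (WDR43, RRS1, DDX21 and NOP2) and 1 of the falls (DDX10) passed.

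In the MYC network MYC rose and MXI1 fell, and MXD3, another MAX partner that opposes MYC, fell by 0.21 ± 0.056, of 12 measured. The MXD3 call was lost without C1 or M1, adjusted p up to 0.0792. Of 11 CLK and SR-protein kinases, which phosphorylate splicing factors, 3 rose: CLK1 by 0.31 ± 0.067, DYRK2 by 0.30 ± 0.063 on 2 of 4 probe sets and PRP4K by 0.20 ± 0.044 on 2 of 3, its other probe set changing by -0.23. All 3 held. Of 33 splicing regulators 6 rose and 2 fell (18.2% and 6.06%, against 3.79% and 5.65% of all genes). SON, a speckle scaffold, rose by 0.25 ± 0.056 on 2 of 4 probe sets and SF1, a branch point binder, by 0.17 ± 0.037 on 1 of 2, and both held. SRSF3 and HNRNPH1 rose by 0.15 (on 2 of 3 probe sets, lost without M3, adjusted p 0.0534) and 0.26 (on 1 of 4 probe sets, lost without C2, C3, M2 or M3, adjusted p up to 0.155). RBM39 and HNRNPDL rose by 0.20 (on 1 of 2 probe sets, lost without C1, C2, C3, M1 or M3, adjusted p up to 0.134) and 0.16 (on 2 of 5 probe sets, lost without C1, C3, M1, M2 or M3, adjusted p up to 0.218). PNISR and RBM5 fell by 0.40 (on 1 of 3 probe sets, lost without M2, adjusted p 0.0541) and 0.17 (on 2 of 3 probe sets, lost without C2 or M2, adjusted p up to 0.119). In mRNA decay 4 of 26 rose and 4 fell (15.4% each, against 3.79% and 5.65% of all genes). ZFP36L1, a sister of ZFP36, rose by 0.35 ± 0.070 on 1 of 4 probe sets, PAN2, a deadenylase, fell by 0.37 ± 0.060 and PUM2, a repressor of translation, by 0.21 ± 0.043 on 1 of 2, and these held. The exosome subunits EXOSC9 and EXOSC10 rose by 0.21 (lost without C1, C2 or M2, adjusted p up to 0.103) and 0.17 (lost without C1, C2, M2 or M3, adjusted p up to 0.170), as did ZFP36 (above). CNOT8 and BTG1 fell by 0.20 (on 2 of 3 probe sets, lost without M3, adjusted p 0.0938) and 0.20 (on 1 of 2 probe sets, lost without C2, C3, M1 or M2, adjusted p up to 0.0744). In the MYC network 8.33% rose and 16.7% fell and among the kinases 27.3% rose and 0% fell, against the same shares of all genes. The fit with 18S called 1 of 1 rise and 1 of 2 falls in the MYC network, 1 of 3 rises among the kinases, 1 of 6 rises and 0 of 2 falls among splicing regulators and 0 of 4 rises and 1 of 4 falls in mRNA decay.

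Of 44 actin and focal adhesion genes 4 rose and 1 fell (9.09% and 2.27%, against 3.79% and 5.65% of all genes). Of the 44, 34 changed above 0 (77.3%, against 45% of all genes) with a median of 0.052. MSN rose and KANK1 fell as above, and MYH9, a non-muscle myosin, and the integrins ITGA6 and ITGA3 rose by 0.24 (lost without C3, M1 or M2, adjusted p up to 0.0796), 0.28 (lost without C1, C3, M2 or M3, adjusted p up to 0.0989) and 0.18 (lost without C3, M1 or M3, adjusted p up to 0.199). Of these calls, 0 of 4 rises and 1 of 1 fall passed with 18S in the fit.

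Of 25 measured genes of tight and adherens junctions 5 rose (20%, against 3.79% of all genes), and 19 changed above 0 (76%, against 45% of all genes). With 18S in the fit 0 of 5 rises passed. TJP1 (ZO-1), the scaffold of tight junctions, read 9.94, 9.91 and 10.01 in the controls and 10.29, 10.27 and 10.31 after exposure, above the controls on every array, and rose by 0.34 ± 0.055 (adjusted p = 0.000426) on both probe sets. This call held. PKP2 and DSP of desmosomes, JUP (plakoglobin) and CLDN4 rose by 0.34 (on 1 of 2 probe sets, lost without C1, C2, M1 or M3, adjusted p up to 0.129), 0.22 (lost without C1, C3, M2 or M3, adjusted p up to 0.123), 0.20 (lost without C1, C3 or M3, adjusted p up to 0.0840) and 0.17 (lost without C1, C2, C3 or M3, adjusted p up to 0.203). Among 37 endocytosis genes LRP1 and LRP2 (megalin), receptors that take up many ligands, rose by 0.59 ± 0.12 and 0.50 ± 0.11, and EHD4, a membrane recycling ATPase, by 0.22 ± 0.049. LRP2 read 7.43, 7.68 and 7.67 against 7.92, 8.27 and 8.09, with separate groups. These 3 held. The clathrin heavy chain CLTC rose by 0.15 (on 1 of 2 probe sets, lost without C1, C3, M2 or M3, adjusted p up to 0.107) and EHD1 fell by 0.15 (on 1 of 5 probe sets, lost without C1, C2, M2 or M3, adjusted p up to 0.212). In the endocytosis list 10.8% rose and 2.7% fell, against 3.79% and 5.65% of all genes. With the 18S level in the fit LRP2 changed by 0.30 (adjusted p = 0.366) and LRP1 as given above, and 0 of 4 rises and 0 of 1 fall in the endocytosis list passed. Of 30 lysosomal genes 4 fell, GUSB by 0.16 (lost without C3, adjusted p 0.0520), NPC2 by 0.16 (lost without C2, C3, M2 or M3, adjusted p up to 0.130), HEXA by 0.15 (on 1 of 2 probe sets, lost without C1, C2, C3, M1 or M3, adjusted p up to 0.108) and CTSA by 0.15 (lost without any of the 6 arrays, adjusted p up to 0.114). The 4 falls made up 13.3% of the lysosomal list, against 5.65% of all genes, and fitted with 18S 0 of 4 passed.

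In TGF-beta and BMP feedback 3 of 27 rose and 1 fell (11.1% and 3.7%, against 3.79% and 5.65% of all genes). RNF111 is given above, SMURF1, a ligase for SMAD proteins, rose by 0.36 ± 0.063 on 1 of 3 probe sets, and SMAD3, the transducer itself, read 8.58, 8.78 and 8.62 in the controls and 8.41, 8.11 and 8.25 after exposure, wholly lower, and fell by 0.41 ± 0.084 (adjusted p = 0.00326) on 2 of 4 probe sets. These held, and the repressor TGIF1 rose by 0.21 (lost without C2 or M2, adjusted p up to 0.102). Of 16 Notch genes the ligand JAG1 read 10.70, 10.73 and 10.61 against 11.04, 10.99 and 11.03 and rose by 0.34 ± 0.052 (adjusted p = 0.000200) on 3 of 4 probe sets, and held. The target HES1 and the receptor NOTCH2 rose by 0.28 (on 2 of 3 probe sets, lost without C2 or M1, adjusted p up to 0.0817) and 0.24 (on 1 of 4 probe sets, lost without C1, M1 or M3, adjusted p up to 0.0779). Of 24 Wnt genes LRP6 and CCND1, the G1 cyclin, rose and held (0.28 ± 0.061 on 1 of 2 probe sets for CCND1), CD44 and LRP5 rose by 0.37 (on 1 of 8 probe sets, lost without M2, adjusted p 0.0514) and 0.24 (lost without C1, C3, M1 or M3, adjusted p up to 0.161). RNF43, a ligase that removes Wnt receptors, fell by 0.22 (lost without M3, adjusted p 0.0526). Rises and falls made up 18.8% and 0% of the Notch list and 16.7% and 4.17% of the Wnt list, against the same shares of all genes. With 18S as a term 1 of 3 rises and 0 of 1 fall passed in the TGF-beta list, 1 of 3 rises in the Notch list, with 1 further gene there lower, and 0 of 4 rises and 0 of 1 fall in the Wnt list.

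Of 34 measured mitotic genes 5 fell (14.7%, against 5.65% of all genes) and 26 changed below 0 (76.5%, against 55% of all genes at or below 0), with a median of -0.085 against -0.014 over all genes. AURKA, a centrosomal kinase, read 10.48, 10.41 and 10.53 in the controls and 10.32, 10.18 and 10.17 after exposure and fell by 0.25 ± 0.049 (adjusted p = 0.00215) on 2 of 3 probe sets, below the controls on each array. KIF20A and HMMR of the spindle fell by 0.28 ± 0.064 and 0.27 ± 0.062, and the 3 held. CDC25C and UBE2C fell by 0.23 (on 1 of 3 probe sets, lost without M3, adjusted p 0.0546) and 0.17 (lost without C1, C3, M2 or M3, adjusted p up to 0.189). In DNA replication 6 of 45 fell and 1 rose (13.3% and 2.22%, against 5.65% and 3.79% of all genes). ORC1 and ORC4 of the origin recognition complex fell by 0.40 ± 0.095 and 0.18 ± 0.042 (on 1 of 2 probe sets for ORC4) and held, as did the rise of MCM9. PRIM1, RFC1, ORC2 and RFC4 fell by 0.22 (lost without M3, adjusted p 0.0613), 0.18 (on 1 of 3 probe sets, lost without C3 or M3, adjusted p up to 0.0970), 0.14 (lost without C3, M1 or M3, adjusted p up to 0.213) and 0.22 (lost without C1, C3, M1 or M3, adjusted p up to 0.170). In the mitotic list 0 of 5 falls and in the replication list 0 of 1 rise and 0 of 6 falls passed with 18S in the fit.

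Of 30 brush border and enterocyte genes CDX2, the intestinal homeobox factor, fell by 0.24 ± 0.057 and held. MYO1A, a brush border myosin, fell by 0.21 (lost without C2 or M2, adjusted p up to 0.0973) and the lipid carrier APOB rose by 0.37 (lost without C1 or M3, adjusted p up to 0.0553). VIL1, ALPI, APOA1, FABP1 and SI changed by 0.089, 0.085, -0.013, -0.0058 and -0.047 and did not pass. Of 21 mucus and goblet cell genes MUC13, a membrane mucin, rose by 0.20 ± 0.048 (lost without C1, adjusted p 0.0781), and MUC2, MUC5AC and TFF3 changed by -0.21, 0.20 and -0.23 without passing. LYZ (lysozyme), listed with enteroendocrine and Paneth cells and at a level of 10.98 in the controls here, rose by 0.38 ± 0.077 (adjusted p = 0.00256) and held, the only call among the 14 of that list. NKG7 was the only leukocyte marker called, at a level of 4.63 and a change of 0.22 (lost without C1, C2, C3, M2 or M3, adjusted p up to 0.156). Of the fibroblast and endothelial markers 0 passed (limma), with 1 (FBLN1, 0.14) and 0 at an unadjusted p under 0.05. Of brush border genes 3.33% rose and 6.67% fell and of mucus genes 4.76% rose and 0% fell, against 3.79% and 5.65% of all genes. The rises of LYZ and NKG7 were 7.14% and 5.26% of their lists. LYZ alone of these lists passed with 18S in the fit.

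Interferon, cytokine and respiratory chain genes complete the lists. IRF7, IRF1 and IFIT1 fell by 0.24, 0.26 and 0.37 of 32 interferon response genes (9.38% called down, against 5.65% of all genes). Of the 32 genes, 25 changed below 0 (78.1%, against 55% of all genes at or below 0). IRF1 held, IRF7 was lost without C2, adjusted p 0.0560 and IFIT1 was lost without C2, C3, M1, M2 or M3, adjusted p up to 0.156. Of 26 JAK, STAT and SOCS genes 0 passed (limma) and 3 had an unadjusted p under 0.05, PIM1 with the smallest (change -0.17). The complex I subunits NDUFB3, NDUFS4 and NDUFV1 fell by 0.11 (lost without C1, C2, C3, M1 or M3, adjusted p up to 0.159), 0.13 (lost without C2, C3, M2 or M3, adjusted p up to 0.169) and 0.13 (lost without C1, C3, M2 or M3, adjusted p up to 0.216) of 53 oxidative phosphorylation genes, which is 5.66% called down against 5.65% of all genes. In the interferon list 1 of 3 falls and in this one 0 of 3 falls passed with 18S in the fit.

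**Figure D4:**
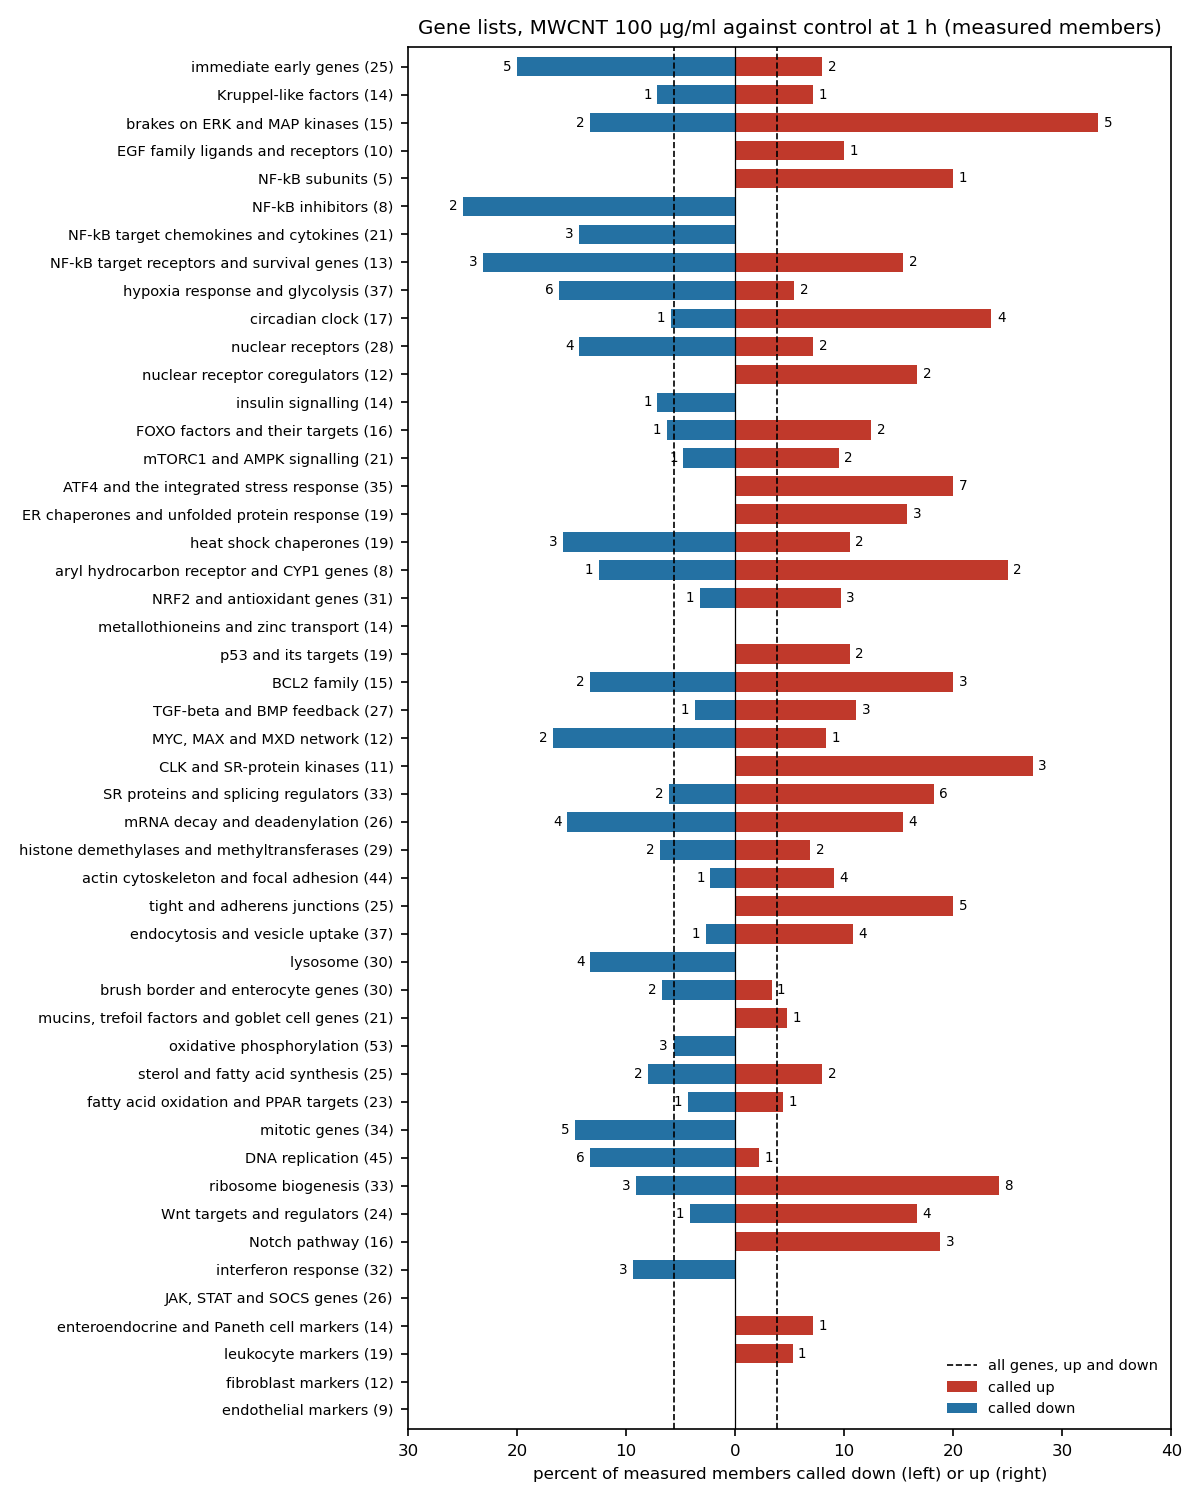
Share of the measured members of each gene list called down (blue, left) or up (red, right) in MWCNT at 100 µg/ml against control at 1 h, with the number called at the end of each bar and the number measured in brackets. The dashed lines are the shares over all genes, 5.65% down and 3.79% up, which are not matched for level. The lists were chosen with earlier results of these data known, so the bars are only a description. The ERK brakes reach farthest to the right at 33.3% and the NF-kB inhibitors farthest to the left at 25.0%. The oxidative phosphorylation list ends on the line for falls.

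Genes read by several probe sets allow a check within each array. Of 1758 genes with at least 3 probe sets, all were called up in 4 and all down in 5. The rises were DUSP6 (0.51 to 0.60), TANK, an adaptor of TRAF proteins (0.26 to 0.55), BCL2L1 (0.18 to 0.56) and KDM6B (0.18 to 0.20). The falls were FAM13A (-1.04 to -1.21), ZMYM4, a zinc finger protein (-0.41 to -0.61), PARP2, a DNA damage sensor (-0.20 to -0.41), SUPT7L of the STAGA complex (-0.19 to -0.31) and DHPS, which makes deoxyhypusine (-0.16 to -0.24). Among 4310 genes with at least 2 probe sets 4 had calls in both directions. KPNB1, the importin beta that carries cargo into the nucleus, was read by 6 probe sets, of which 1 rose by 0.11 ± 0.035, 1 fell by 0.20 ± 0.047 and 4 did not pass. AMBRA1 had probe sets at 0.21 and -0.44, COPS2 at 0.22 and -0.13 and H2AZ2 at 0.20 and -0.13. For these 4 no direction of the gene is given.

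Against the lower dose, 0 of 22215 probe sets passed (0%, limma), and 1518 had an unadjusted p under 0.05. If nothing differed, a share of about 0.05 of all probe sets would lie under that p. SLC2A9, a urate transporter, was -0.22 ± 0.042 at 100 relative to 10 µg/ml, EPS15L1 -0.25 ± 0.051, PTPN18 -0.17 ± 0.035 and TRAF5 0.37 ± 0.081; these had the smallest p and did not pass (adjusted p = 0.395 for the first 3 and 0.471 for TRAF5). Both doses share the 1 h controls, so their changes are given side by side. The 16 named risers changed by 0.53 to 1.08 at 100 µg/ml (median 0.58) and by 0.19 to 0.96 at 10 µg/ml (median 0.52), and the fallers by -0.56 to -1.04 (median -0.70) and by -0.33 to -1.16 (median -0.72). MSN changed by 0.54 and 0.19, and its direct difference of 0.35 ± 0.10 had an adjusted p of 0.659. FAM13A changed by -1.04 and -1.16, and EGR1 by -0.52 and -0.84. Leaving out M2 gave 2 calls for the dose comparison, and leaving out each of the other arrays 0.

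Against nanobelts at the same dose and time 0 probe sets passed (0%, limma) and 2055 had an unadjusted p under 0.05. NPPB came closest, lower by 0.64 ± 0.11 with MWCNT than with TiO2-NB (adjusted p = 0.0894); its change against the shared controls was -0.67 with MWCNT and -0.034 with TiO2-NB. OLR1, a scavenger receptor for oxidised LDL, was lower by 0.78 ± 0.15 with MWCNT, SLC44A1, a choline transporter, higher by 0.72 ± 0.14, and TBC1D2, a Rab GAP, higher by 0.23 ± 0.044 (adjusted p = 0.126 for each). The count was 1 without M1 or without M2. The named risers changed by 0.28 to 1.26 with TiO2-NB (median 0.46) and the fallers by -0.034 to -1.33 (median -0.79). BHLHE40 changed by 1.04 with MWCNT and 1.26 with TiO2-NB, DDIT4 by 1.08 and 1.15, and CCN1 by -0.49 and -0.24. A comparison that does not pass does not show equal levels. The standard error for a median probe set was 0.076, and differences well beyond their error, such as 0.64 ± 0.11 for NPPB, did not pass.

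**Figure D5:**
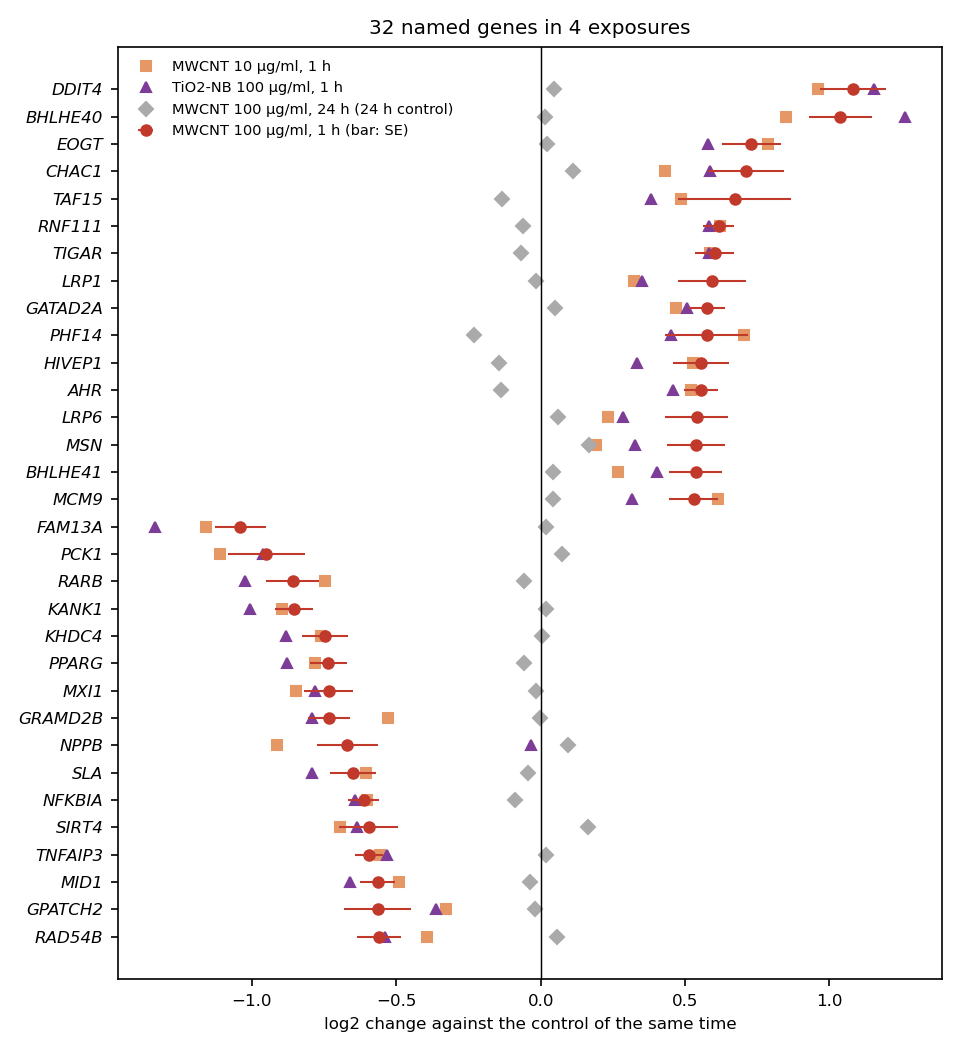
Log2 change against the control of the same time for the 32 named genes. Red circles with bars (SE) are MWCNT at 100 µg/ml, orange squares MWCNT at 10 µg/ml and purple triangles TiO2-NB at 100 µg/ml, all at 1 h against the same controls, and grey diamonds are MWCNT at 100 µg/ml at 24 h; the 1 h symbols lie on the same side of 0 for each gene, NPPB with TiO2-NB at -0.034 being nearest to it, and the 24 h symbols lie between -0.23 and 0.17.

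At 24 h, against its own controls, the same exposure gave 2 called probe sets (0.009%), 1 higher and 1 lower (0.0045% each). Of the 22215 tested 1236 had an unadjusted p under 0.05, where a share of about 0.05 would lie if nothing differed. The 1 called gene (0.00836%) was CYP1A1, the xenobiotic-metabolising target of the aryl hydrocarbon receptor, which fell by 1.04 ± 0.11 (adjusted p = 1.68e-05) and had changed by -0.095 at 1 h. Of the 453 genes that rose at 1 h 0 were called at 24 h (limma, 42 at an unadjusted p under 0.05), 174 still had a change above 0 there, and their median was -0.017; of the 676 that fell 0 were called (57 at an unadjusted p under 0.05), 299 had a change below 0, and their median was 0.0080. Over all genes 52.3% of the 24 h changes were above 0. The effects at 1 h and 24 h share no arrays, and the difference between them passed for 601 probe sets (2.71%, with 3599 at an unadjusted p under 0.05), 328 with a higher value at 24 h (1.48%) and 273 with a lower one (1.23%). Over genes it passed for 404 (3.38%), 236 higher at 24 h (1.97%) and 168 lower (1.4%), among them the representative probe sets of 159 genes that rose at 1 h and 212 that fell. The count of 601 probe sets was 212 with the 18S level in the fit, 375 without M3, 335 and 362 without replicates 2 and 3 of the 24 h controls, 334 and 385 without replicates 1 and 3 of the 24 h MWCNT arrays, and 414 to 630 without each of the other 7.

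The control level itself moved between 1 h and 24 h for some of these genes. DDIT4 averaged 9.44 in the 1 h controls, 10.53 after MWCNT at 1 h, 10.98 in the 24 h controls and 11.03 after MWCNT at 24 h, so the exposed level at 1 h lay between the controls of the 2 times. BHLHE40 followed the same order, at 9.00, 10.04, 10.64 and 10.66. FAM13A lay outside it, at 11.12, 10.08, 12.02 and 12.04, with the exposed 1 h level the lowest of all, and so did PPARG at 9.55, 8.82, 10.14 and 10.08. PCK1 averaged 10.22, 9.27, 8.74 and 8.82, NFKBIA 10.02, 9.41, 9.45 and 9.36, and AHR 8.42, 8.98, 8.45 and 8.31. TIGAR was highest after the 1 h exposure, at 8.49, 9.09, 7.53 and 7.46.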

How the data were processed

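The samples were 30 arrays of 10 groups of 3, each labelled from 3 µg of RNA. The values the authors deposited are log2 levels per probe set, made with RMA per the submitters' processing notes (version not given in the sources used here), so they are quantile-normalised and changes are relative; for arrays the number of samples, 3 per group, limits the precision. Of 22277 probe sets 62 controls were left out and 22215 tested; 19064 had 1 gene symbol in the platform annotation, 1043 several and 2108 none, and 19052 matched RefSeq. A gene was read by its probe set of highest mean (11963 genes). A mean per group was fitted over all 30 arrays with limma 3.58.1 (R 4.3.3, 20 residual degrees of freedom) and p-values were adjusted over the whole table (Benjamini-Hochberg); the script was tested on simulated data.

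Named genes were the 16 largest called rises and 16 largest called falls whose groups did not overlap, in each gene list the called members and up to 4 of smallest p, genes with 3 or more probe sets all called one way, and for other comparisons up to 5 each way by size or the 4 of smallest p. The 9 genes called on every probe set are all given, 3 of them beyond that rule, and some members that did not pass (epithelial markers, CYP1A1) were added after their values were seen. The members and lists were chosen with earlier results of these data known. 1 of the lists is not reported here. Alternatives were the compared groups alone, the replicate block, a filter on low values, a second quantile normalisation, an intensity trend, array weights, 1 probe set per gene, the 18S level as a covariate, and each array left out.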

Additional observations from a re-analysis of the deposited data

Results flagged for a closer look

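For the genes below the effect of MWCNT at 100 µg/ml differed between 1 h and 24 h, by the limma test of the difference between the effects (adjusted p under 0.05 over all probe sets, 3 arrays in each of 4 groups). The values in brackets are the effect at 24 h minus the effect at 1 h on the log2 scale, so a negative value belongs to a gene whose change was higher at 1 h. Of all genes 3.38% passed this test, and most of those listed were chosen for their change at 1 h.

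Among the largest risers at 1 h the values were DDIT4 (-1.03), BHLHE40 (-1.02), EOGT (-0.71), RNF111 (-0.68), TIGAR (-0.67), LRP1 (-0.61), GATAD2A (-0.53), PHF14 (-0.81), HIVEP1 (-0.70), AHR (-0.69), BHLHE41 (-0.49) and MCM9 (-0.49). Each of these genes had risen at 1 h and did not pass at 24 h. Among the largest fallers they were FAM13A (1.06), PCK1 (1.02), RARB (0.80), KANK1 (0.87), KHDC4 (0.75), PPARG (0.68), MXI1 (0.72), GRAMD2B (0.73), NPPB (0.77), SLA (0.60), NFKBIA (0.52), SIRT4 (0.76), TNFAIP3 (0.61), MID1 (0.53) and RAD54B (0.62). Those 15 had fallen at 1 h and did not pass at 24 h.

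Growth signalling genes with a positive change at 1 h had MYC (-0.52), DUSP6 (-0.64), SPRY1 (-0.37), SPRED2 (-0.37), KLF5 (-0.44), ZFP36L1 (-0.44), PRKAG2 (-0.40), JAG1 (-0.38) and CCND1 (-0.32), and the secreted protein CCN1 (0.56) and the mTOR inhibitor DEPTOR (0.29) the opposite sign. Stress, lipid and nuclear receptor genes had SLC7A11 (-0.54), SLC7A1 (-0.37), NFE2L2 (-0.29), SQSTM1 (-0.26), SREBF1 (-0.36), FASN (-0.35), PPARA (-0.57), CREBBP (-0.55) and PER2 (-0.42). In ribosome biogenesis and RNA processing the values were WDR43 (-0.41), RRS1 (-0.38), DDX21 (-0.42), NOP2 (-0.30), SF1 (-0.32), DYRK2 (-0.40), PRP4K (-0.23) and CNOT8 (0.31).

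Membrane, junction and mucus genes had TJP1 (-0.43), EHD4 (-0.28) and MUC13 (-0.30). Chromatin, glucose and chaperone genes had KDM3A (0.55), KDM4C (0.28), SLC2A3 (0.48) and DNAJB6 (0.33). For genes of mitosis and replication the values were AURKA (0.30), KIF20A (0.42), HMMR (0.40) and ORC4 (0.25), and for the interferon-induced IFIT1 and the chemokine CXCL5 they were 0.63 and 0.58.

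A further 5 genes had among the largest differences without a call at 1 h. UTS2, the peptide urotensin, changed by -0.45 at 1 h and 0.93 at 24 h (difference 1.38, adjusted p = 0.0383), PAGE4 by -0.46 and 0.74 (1.20, adjusted p = 0.00763) and OLR1 by -0.46 and 0.45 (0.91, adjusted p = 0.0196). None of these 6 changes passed at its own time. CYP1A1 changed by -0.095 at 1 h and -1.04 at 24 h (-0.95, adjusted p = 0.000855), and ANKRD11 by 0.29 and -0.49 (-0.78, adjusted p = 0.0358).

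The 18S probe set, whose part in these differences was not tested, differed from control by 1.51 at 1 h and by 0.059 at 24 h. With its level in the fit 212 in place of 601 probe sets passed.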

How the results depend on the processing

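The count of 1729 probe sets called at 1 h was within 1.5 times of itself in most settings with all arrays, from 1624 with array weights to 2166 of 14810 with low probe sets left out. With 1 probe set per gene 1347 of 11963 were called, against 1129 of the same probe sets in the main fit. The count of 1729 became 112 with only the compared groups (63 up, 49 down) and 347 with the 18S level as a covariate, and 1112 to 1683 with each array left out, lowest without M3. With a second quantile normalisation 836 rose and 888 fell, against 780 and 949. With only the compared groups 1 gene rose and 0 fell in each of the ATF4, ribosome biogenesis and ERK brake lists. In the clock list 2 rose and 0 fell, and among NF-kB inhibitors 0 rose and 2 fell. In the junction and mitotic lists 0 passed.

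The dose comparison gave 0 calls in every other setting and 0 to 2 with each array left out. The comparison with TiO2-NB gave 3 calls with the replicate block, 1 with low probe sets left out, 1 with the intensity trend, 1 with 1 probe set per gene, and 0 to 1 with each array left out. At 24 h the count was 0 with only the compared groups, 4 with the replicate block, 1 with 1 probe set per gene and 1 to 3 with each array left out; in the remaining settings it was 3. The difference between 24 h and 1 h gave 267 calls with only the compared groups, 955 with low probe sets left out, 212 with the 18S level and 334 to 630 with each array left out. The 18S difference itself was 1.22 to 1.81 and that of 28S 0.51 to 0.84 with each array left out.

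The replicate numbers did not pair the arrays: deviations of same-numbered control and MWCNT arrays at 1 h correlated at -0.080, -0.12 and 0.050. With the replicate block 1699 probe sets were called. Among the 32 named genes TAF15 reversed with the 18S level as a covariate (-0.089); the cause was not tested. Low probe sets limit what can be called, since RMA gives no detection limit and small changes near background are understated.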
